A study of Mus musculus with 3 samples.

Results

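The TRAV13 family is a group of closely related variable genes of the T cell receptor α chain, and its use was followed here in T cells of inflamed sciatic nerve. Members were the productive α chain (TRA) contigs whose deposited V gene was named TRAV13-, TRAV13D- or TRAV13N-, which gave 297 of 3325 TRA rearrangements. Contigs of a library with the same V gene, J gene and CDR3 nucleotides (the CDR3 is the loop that spans the V-J junction) were counted as 1 rearrangement. Droplet scTCR-Seq was done on CD45+ cells sorted from sciatic nerves of neuropathic NOD.AireGW/+ mice, which carry 1 mutant copy of Aire, the gene that drives display of tissue antigens to developing T cells in the thymus. Replicates 1 and 2 held 1 mouse each and replicate 3 pooled 2 mice, whose cells cannot be told apart. No age is given in the labels. All libraries were of this one condition, so no conditions were compared, and every p-value below compares rearrangements within these libraries, not mice. Barcodes were not joined to gene expression, so CD4+ and other T cells are counted together.

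An α chain is made when a TRAV gene is joined to a TRAJ segment. The segments lie in a row after the V genes, those with high TRAJ numbers nearest to them, and a cell may replace a first join by a second that uses a V gene further upstream and a TRAJ segment further downstream. In GRCm38, the mouse reference genome, the central part of the V gene array has been copied, and letters D and N in a name mark the copies. No NOD genome was used here, so the copies that NOD mice carry are not known from these data. CDR1 and CDR2, which mostly touch the MHC molecule, are encoded by the V gene, and the CDR3 mostly touches the peptide. The name TRAV13-4-DV7 marks a V gene that can also be used by δ chains.

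Per GENCODE M21 on GRCm38, the family has 12 copies on the plus strand of chromosome 14, of which 1 (Trav13-3) is a pseudogene. Trav13d-2 lies at chr14:52942764-52943289, Trav13-1 at chr14:53545014-53545525, Trav13-2 at chr14:53634829-53635399 and Trav13-4-dv7, the copy nearest to the TRAJ segments, at chr14:53757356-53757921. The TRAJ segments span chr14:54155005-54218842. Contigs were given 7 of the 12 names.

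The V regions of replicates 2 and 3, where the deposited files hold them, did not map 1 to 1 to these names. Replicate 1 has no V region sequences here. In 307 contigs there were 8 distinct sequences from framework 1 to framework 3, of which 7 were in both libraries. None was identical to a copy of GRCm38, which is not a NOD genome. Contigs named TRAV13-1 carried 1 of 2 sequences, called form 1 (115 contigs) and form 2 (60 contigs) here. They are shown because the same name covers both, with capitals at the 14 bases where they differ:
TRAV13-1 form 1: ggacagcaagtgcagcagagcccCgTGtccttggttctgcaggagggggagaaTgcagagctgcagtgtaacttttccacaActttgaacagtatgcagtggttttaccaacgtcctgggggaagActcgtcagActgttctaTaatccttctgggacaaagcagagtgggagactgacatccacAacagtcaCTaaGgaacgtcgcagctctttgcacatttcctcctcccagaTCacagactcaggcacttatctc
TRAV13-1 form 2: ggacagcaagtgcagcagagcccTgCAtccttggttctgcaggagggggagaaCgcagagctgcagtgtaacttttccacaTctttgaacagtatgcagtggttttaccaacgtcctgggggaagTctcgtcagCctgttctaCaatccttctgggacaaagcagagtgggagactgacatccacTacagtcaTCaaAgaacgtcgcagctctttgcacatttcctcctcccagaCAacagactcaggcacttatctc
Both forms were found in the library of 1 mouse (replicate 2, with 86 and 56 contigs) and in replicate 3 (29 and 4). Framework 1 held 4 of the differences, CDR1 held 1, framework 2 held 3, framework 3 held 6 and CDR2 held 0. Form 2 was 3 bases from Trav13-1 of GRCm38, and form 1 was 13 bases from Trav13-1 and from Trav13d-1.

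Contigs named TRAV13-4-DV7 and TRAV13D-2 were the reverse case, since both names carried the same sequence. It is shown with capitals at the 16 bases that differ from Trav13-4-dv7 of GRCm38:
TRAV13-4-DV7 and TRAV13D-2: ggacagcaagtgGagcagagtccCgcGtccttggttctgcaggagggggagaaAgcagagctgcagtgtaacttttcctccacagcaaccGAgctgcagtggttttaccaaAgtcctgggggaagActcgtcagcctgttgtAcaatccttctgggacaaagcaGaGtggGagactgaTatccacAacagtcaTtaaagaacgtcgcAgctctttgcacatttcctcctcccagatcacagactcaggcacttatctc
It was 15 bases from Trav13d-2 and from Trav13n-2, so no reference copy was close to it. Against TRAV13-1 form 1 it differed at 10 of the 15 bases of CDR1 and at 0 of the 15 bases of CDR2. Of the parts compared, the start of the CDR3 was where the names differed. Bases before framework 1 were not compared, and how the names had been assigned was not examined. The V exon of the reference ends in tgtgctatggaac for Trav13-4-dv7 and in tgtgctatagatc for Trav13d-2. Of the rearrangements named TRAV13-4-DV7, 53 of 53 began with tgtgctatg, against 11 of 25 of those named TRAV13D-2. This start did not simply follow the reference copy of a name. TRAV13-1, whose copy differs from it, had it in 122 of 154. TRAV13-2, whose copy ends as Trav13d-2 does, had it in 21 of 45. Because TRAV13-4-DV7 and TRAV13D-2 carried the same sequence, their tests are also given with both counted together, a choice made after the sequences were seen.

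TRAV13-2 was close to its reference copy. Its commoner sequence (52 contigs), with capitals at the 2 bases that differ from Trav13-2 of GRCm38, was:
TRAV13-2 form 1: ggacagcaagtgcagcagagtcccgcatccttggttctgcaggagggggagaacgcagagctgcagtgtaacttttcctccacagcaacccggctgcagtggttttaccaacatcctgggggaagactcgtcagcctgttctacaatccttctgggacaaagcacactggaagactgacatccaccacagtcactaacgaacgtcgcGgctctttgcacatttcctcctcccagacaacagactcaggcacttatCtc
A second sequence in 12 contigs differed from it by C256T, counted from 1 at the first base of framework 1. TRAV13N-4 was 1 base from its reference copy. TRAV13D-3 and TRAV13N-3, whose V regions are 261 bases long against 258 in the others, were 5 bases or fewer from 1 or more of the 3 reference copies numbered 3.

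**Figure D1:**
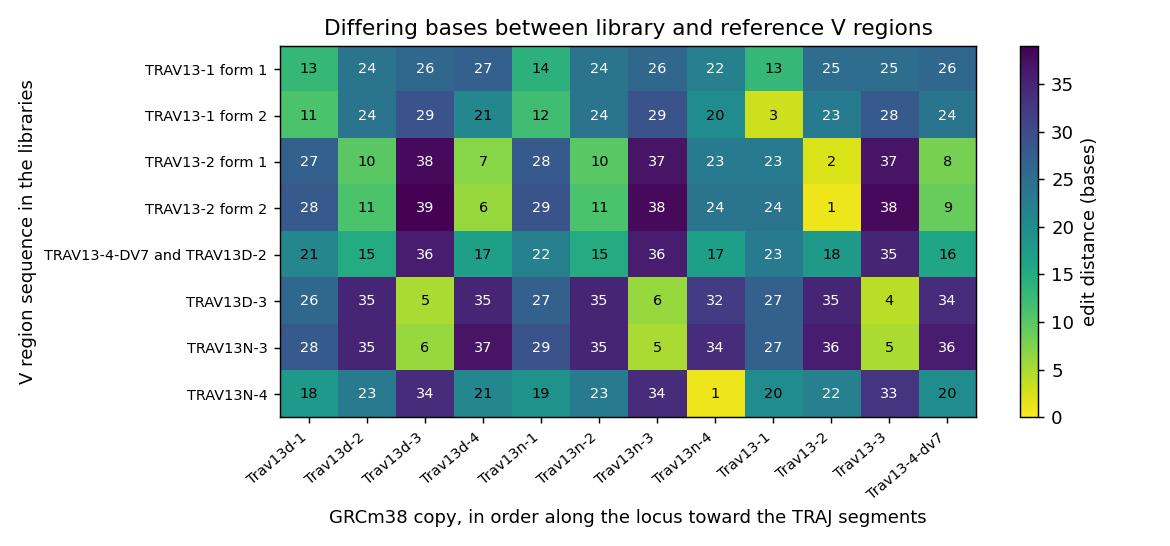
Edit distance in bases between each V region sequence found in replicates 2 and 3 (rows) and each GRCm38 copy (columns, in order toward the TRAJ segments). TRAV13-2 and TRAV13N-4 sequences lie 1 or 2 bases from the copy of their name, while the sequence shared by TRAV13-4-DV7 and TRAV13D-2 is at least 15 bases from all copies.

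The family made up a nearly constant share of TRA rearrangements. It held 110 of 1231 in replicate 1 (8.94%, exact 95% Clopper-Pearson interval 7.40% to 10.7%), 152 of 1700 in replicate 2 (8.94%, 7.63% to 10.4%) and 35 of 394 in replicate 3 (8.88%, 6.27% to 12.1%). The mean was 8.92% ± 0.0320 (SD, n = 3 libraries), a spread smaller than these intervals, which cover counting error only. Among TRAV subgroups the family was number 5 by share in replicates 1 and 3 and number 4 in replicate 2, and TRAV6 was number 1 in each. As a share of cells with a TRA it was more variable, at 7.29% (145 cells), 9.08% (256 cells) and 10.8% (50 cells), or 9.07% ± 1.78. The median family contig had 5, 4 and 3 UMIs (unique molecular identifiers, which count transcripts) in the 3 libraries, and other TRA contigs had 5, 3 and 3. Libraries 1 and 2 shared 7 cell barcodes and libraries 2 and 3 shared 3. Of these, 1 carried a family TRA, and no family rearrangement was found under the same barcode in 2 libraries.

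TRAV13-1 was the main member. It had 56, 78 and 20 rearrangements in replicates 1, 2 and 3, which were 4.55%, 4.59% and 5.08% of all TRA rearrangements, or 4.74% ± 0.294 (SD, n = 3 libraries). It ranked 4 of 68 TRAV names by number of rearrangements. TRAV13-4-DV7 followed with 22, 28 and 3 (1.40% ± 0.556), TRAV13-2 with 14, 26 and 5 (1.31% ± 0.20) and TRAV13D-2 with 8, 12 and 5 (0.875% ± 0.342). These 3 names overlapped in share, and their order changed between libraries. The last 3 names were rare, with 7 rearrangements of TRAV13N-4, 8 of TRAV13N-3 and 5 of TRAV13D-3 in all. TRAV13N-3 had 0 in replicate 3, which allows a share of up to 0.761% (3 counts).

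**Figure D2:**
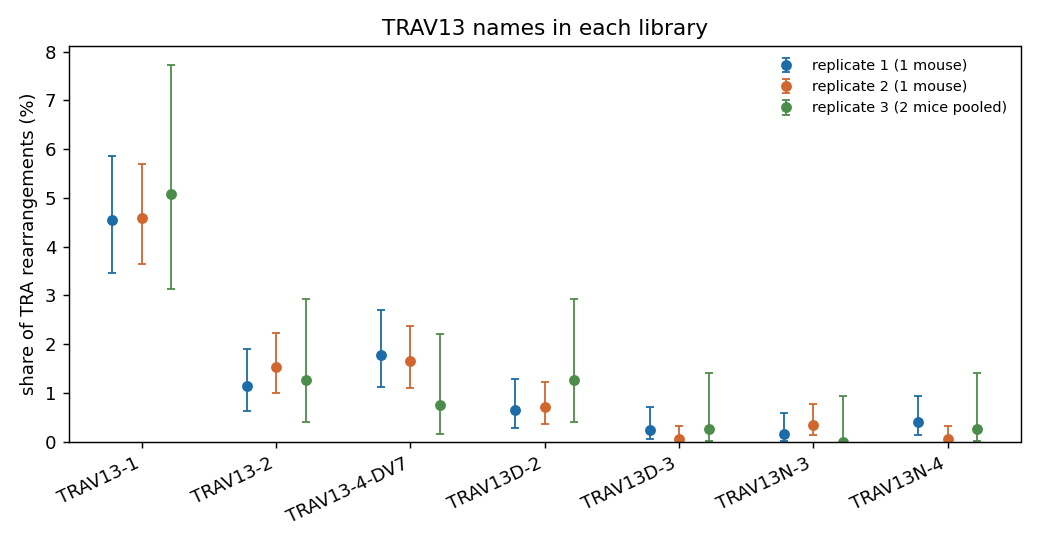
Share of TRA rearrangements (%) under each TRAV13 name, by library, with exact 95% binomial intervals. TRAV13-1 lies between 4.55% and 5.08% in each library, above every other name, while TRAV13-2, TRAV13-4-DV7 and TRAV13D-2 overlap.

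Whether V genes were over- or under-represented among expanded rearrangements, those found in more than 1 cell, was asked for every V gene. The family as a whole resembled the rest. In replicate 1, 22 of 110 family rearrangements were expanded (20.0%), in replicate 2 33 of 152 (21.7%) and in replicate 3 5 of 35 (14.3%), against 21.9%, 23.6% and 14.2% of the other TRAV rearrangements. Its members did not all lie at this level. Of the rare names, which had too few rearrangements for the test, TRAV13N-3 had 5 of 8 expanded (62.5%, interval 24.5% to 91.5%). TRAV13N-4 had 1 of 7 and TRAV13D-3 had 0 of 5. TRAV13-2 was expanded in 3 of 14, 11 of 26 and 1 of 5 rearrangements, and TRAV13-4-DV7 in 2 of 22, 2 of 28 and 0 of 3. TRAV13-2 was thus the higher of the pair in each library, by 12.3, 35.2 and 20.0 percentage points, and most of the excess came from replicate 2. Over all libraries the shares were 33.3% (15 of 45, interval 20.0% to 49.0%) and 7.55% (4 of 53, 2.09% to 18.2%). Since this pair was picked for its difference, that contrast is a description with no test.

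Against all TRA rearrangements of each library, TRAV13-4-DV7 had 4 expanded where 11.8 were expected, a ratio of 0.340 that was below 1 in 3 of 3 libraries. TRAV13-2 had 15 where 9.83 were expected, a ratio of 1.53 that was above 1 in 2 of 3 libraries. Under the alternatives its ratio ranged from 1.07 (without replicate 2) to 1.77 (without replicate 1). TRAV13-1 had 32 against 33.3 (ratio 0.962) and TRAV13D-2 had 3 against 5.26 (ratio 0.571). None of the 4 names passed the adjustment over the 76 V genes tested, of which 0 were called (0%) and 4 had an unadjusted p under 0.05. The exact stratified test gave TRAV13-4-DV7 p = 0.00704 (adjusted p = 0.267) and TRAV13-2 p = 0.0685 (adjusted p = 0.540). The pair was picked from these same counts, so these p-values give its contrast no separate support. With TRAV13D-2 counted with TRAV13-4-DV7, 7 of 78 were expanded, a ratio of 0.412 (adjusted p = 0.127 in the same exact test). Without replicate 2 the pair differed by 13.1 percentage points, against 25.8 over all libraries.

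By V region sequence, in replicates 2 and 3 only, 3 of 48 rearrangements of the sequence shared by TRAV13-4-DV7 and TRAV13D-2 were expanded, where 10.5 were expected (adjusted p = 0.163, exact stratified test). TRAV13-1 form 1 had 12 of 71 and form 2 had 8 of 27. TRAV13-2 form 1 had 9 of 23 and its second sequence had 3 of 8. By name over all libraries, the largest TRAV13-4-DV7 rearrangement was in 2 cells, whereas TRAV13-1 reached 20 cells, TRAV13-2 reached 11 and TRAV13D-2 reached 5. With expansion set at over 5 cells, TRAV13-1 had only 4 and TRAV13-2 only 2. TRAV13-4-DV7 had 0 (adjusted p = 0.944, exact stratified test). With expansion set at over 2 cells it also had 0 (adjusted p = 0.121, same exact test).

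**Figure D3:**
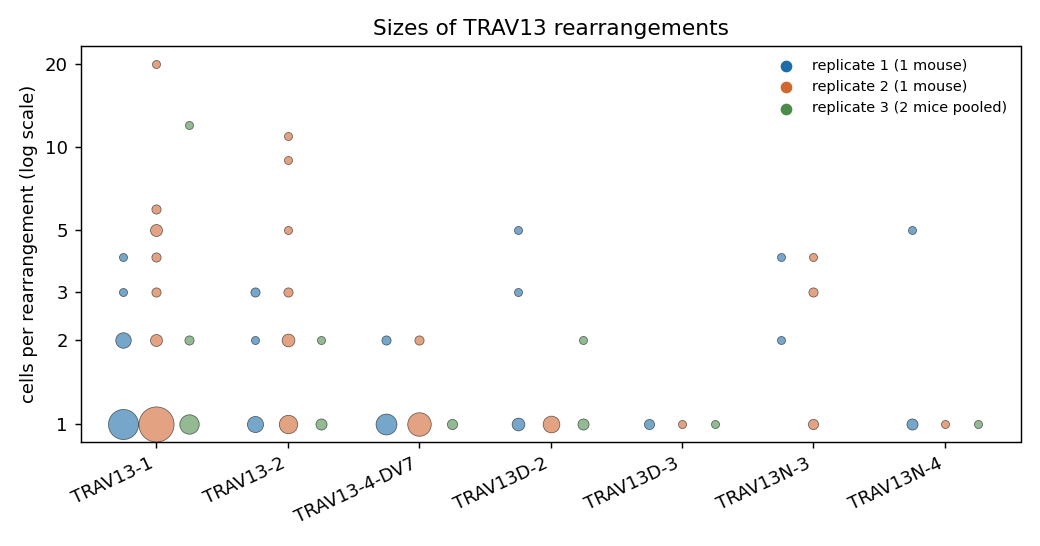
Cells per rearrangement (log scale) under each TRAV13 name, by library; the area of a circle grows with the number of rearrangements of that size. TRAV13-1 reaches 20 cells, TRAV13-2 reaches 11 and TRAV13D-2 reaches 5, while TRAV13-4-DV7 stops at 2.

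The members also differed in where along the TRAJ array they had joined. TRAV13-1 was joined to V-proximal segments, defined as TRAJ31 or higher, less often than other TRAV genes, and TRAV13-4-DV7 more often. For TRAV13-1 these were 29 of 56, 36 of 78 and 9 of 20 rearrangements, or 51.8%, 46.2% and 45.0%, each below the 60.2%, 58.2% and 59.6% of all TRA rearrangements of the same library. For TRAV13-4-DV7 they were 20 of 22, 21 of 28 and 3 of 3, or 90.9%, 75% and 100%, each above that level. The ratio to the expected number was 0.813 for TRAV13-1 (74 against 91.1, adjusted p = 0.0167) and 1.40 for TRAV13-4-DV7 (44 against 31.3, adjusted p = 0.00227) by the exact stratified test. Such calls were common, since 20 of 55 TRAV genes (36.4%) passed, 10 in each direction. TRAV13D-2 was above the library level in 3 of 3 libraries (20 against 14.8, adjusted p = 0.0997 in this exact test), and TRAV13-2 had 27 against 26.6 (adjusted p = 1). With TRAV13D-2 counted with TRAV13-4-DV7, 64 rearrangements were V-proximal, a ratio of 1.39 (adjusted p = 0.000209, exact test).

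The directions were the same under every alternative run, with ratios of 0.662 to 0.846 for TRAV13-1 and 1.33 to 1.62 for TRAV13-4-DV7, but both calls were lost under some. TRAV13-1 had a ratio of 0.846 (adjusted p = 0.118) with chains of at least 3 UMIs and 0.833 (adjusted p = 0.187) without replicate 2, by the exact test. TRAV13-4-DV7 had 1.33 both in cells with exactly 1 TRA and 1 TRB (adjusted p = 0.0590) and without replicate 1 (adjusted p = 0.0966), by the exact test. With the boundary at the median TRAJ number, 33, TRAV13D-2 passed as well, with a ratio of 1.55 (adjusted p = 0.0223, exact test).

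The median TRAJ number was 48 for TRAV13-4-DV7, 42 for TRAV13D-2, 34 for TRAV13-2 and 30 for TRAV13-1, beside 33 for all other TRAV genes. The family as a whole also had a median of 33, and 60.6% of its rearrangements were V-proximal against 59.0% of the others, so its members lay on both sides of the general level. By V region sequence, TRAV13-1 form 2 had 8 of 27 V-proximal where 15.8 were expected (adjusted p = 0.0178) and form 1 had 37 of 71 where 41.6 were expected (adjusted p = 0.462, both by the exact test). The difference between the forms was not tested. The sequence shared by TRAV13-4-DV7 and TRAV13D-2 had 37 of 48 against 28.1 (adjusted p = 0.0304), in an exact test that called 14 of 51 genes.

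**Figure D4:**
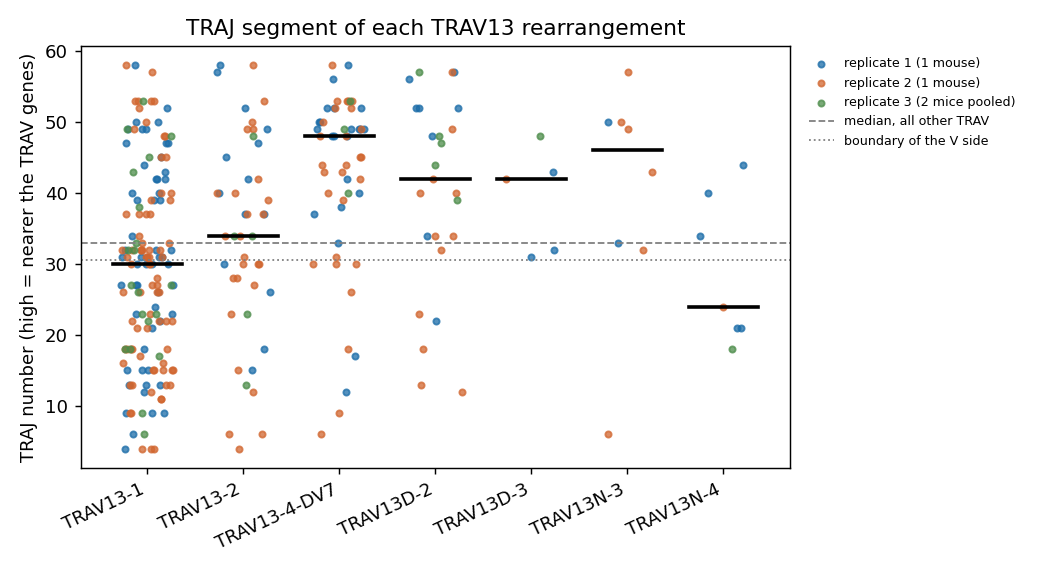
TRAJ number of each TRAV13 rearrangement, coloured by library, with the median of each name as a black bar; high numbers lie nearer the TRAV genes. Most TRAV13-4-DV7 points lie above the boundary below TRAJ31 (44 of 53), whereas those of TRAV13-1 are spread over the whole array (74 of 154 above it).

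**Figure D5:**
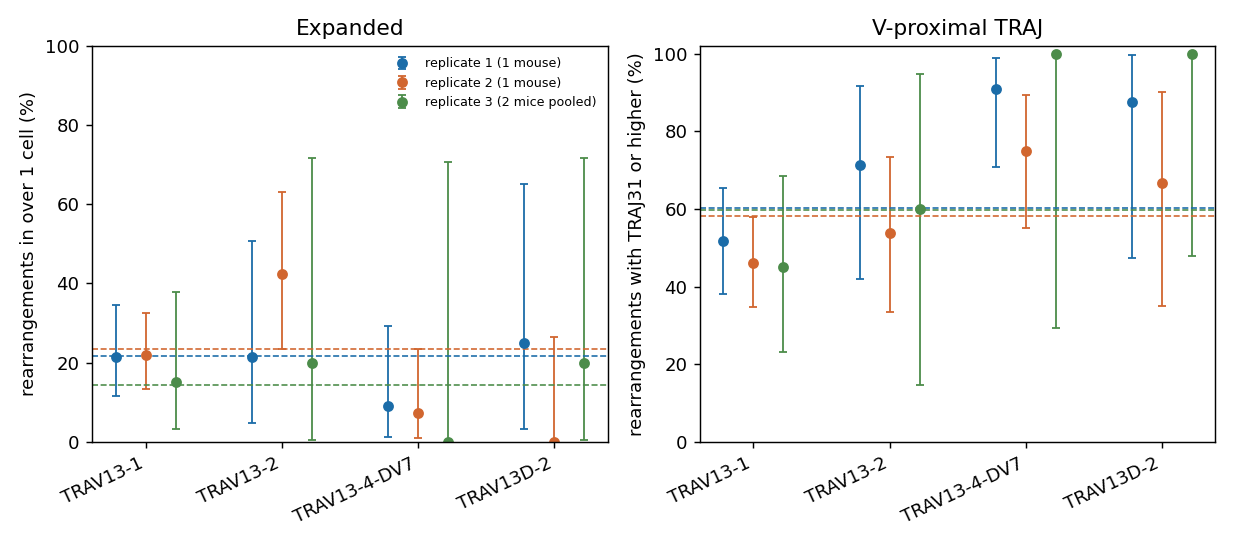
Share of rearrangements in more than 1 cell (left) and with TRAJ31 or higher (right) for the 4 commonest names, by library, with exact 95% binomial intervals; dashed lines give the level of all TRA rearrangements of each library. TRAV13-4-DV7 lies below the lines on the left and above them on the right in each library.

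Single TRAJ segments were tested as pairs with each TRAV gene. No family pair was called among 40 tested, beside 10 of 469 pairs (2.13%) in all. Most of the 40 were pairs of TRAV13-1 and none was of TRAV13D-2, since pairs expected fewer than 2 times were not tested. The lowest p among them belonged to TRAV13-1 with TRAJ32 (chr14:54186101-54186166), found in 3, 7 and 2 rearrangements of the 3 libraries, or 12 where 5.26 were expected (ratio 2.28, adjusted p = 0.139, exact stratified test). In cells with exactly 1 TRA and 1 TRB this pair passed, with a ratio of 3.06 (adjusted p = 0.0434). TRAV13-4-DV7 with TRAJ49 (chr14:54168686-54168747) followed with 5, 1 and 1 rearrangements, or 7 against 2.28 (adjusted p = 0.152, exact test). With TRAV13D-2 counted in, it had 8, a ratio of 2.45 (adjusted p = 0.272, exact test). The next commonest partners of TRAV13-1 were TRAJ31 with 9 rearrangements and TRAJ15 with 8, as many as TRAJ18 and TRAJ27. TRAV13-4-DV7 was next joined to TRAJ48, TRAJ52 and TRAJ53 in 5 rearrangements each. TRAV13-2 had 4 each with TRAJ30, TRAJ34 and TRAJ37, and TRAV13D-2 had 3 each with TRAJ34, TRAJ52 and TRAJ57. Of the partners listed for names other than TRAV13-1, only TRAJ48 and TRAJ49 with TRAV13-4-DV7 were tested by name. Across 42 TRAJ segments, the genes outside the family whose TRAJ use overlapped most with it were TRAV6N-7 (overlap 0.774, where 1 is identical use), TRAV16N (0.748) and TRAV9-1 (0.706), beside a median of 0.640 over the 20 genes with at least 50 rearrangements. These 3 had 204, 118 and 172 rearrangements. The overlap was not adjusted for this number and can be lower where it is small, which limits the ranking.

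Among the TRBV partners tested, no preference passed the test. In cells with exactly 1 TRA and 1 TRB there were 228 family pairs of 2582, with 19 of 22 TRBV names. None of 34 TRAV-TRBV pairs of the family was called, nor any of all 412 (0%), of which 30 had an unadjusted p under 0.05, none of them in the family. TRAV13-1 was found most with TRBV13-1 (13 of 119 pairs), TRBV16 (12) and TRBV19 (12), and its lowest p was for TRBV13-3, with 4 against 9.09 expected (unadjusted p = 0.0766, adjusted p = 0.769, exact stratified test). TRAV13-2 was found most with TRBV5 (7 of 38), TRBV19 (5) and, with 4 each, TRBV13-3 and TRBV31. TRAV13-4-DV7 had 4 of 35 pairs each with TRBV15, TRBV16, TRBV19 and the joint name TRBV12-2+TRBV13-2, and TRAV13D-2 had 4 of 19 with TRBV3. TRBV3 made up 21.1% of the TRAV13D-2 pairs against 3.02% of all pairs. TRBV15 made up 11.4% of the TRAV13-4-DV7 pairs against 3.41% of all. Both were expected fewer than 2 times and were not tested. With TRAV13-4-DV7 and TRAV13D-2 counted together, 0 of 36 family pairs tested were called.

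The largest family rearrangements were few and lay in replicates 2 and 3. Rearrangements of at least 6 cells numbered 0, 5 and 1 in replicates 1, 2 and 3. The CDR3s of the largest of each name found in more than 1 cell, of the next of replicate 2 and of the largest of replicate 3 are shown (of those tied in cells, the 1 with the higher median of UMIs) for their junctions, with capitals for bases that match neither the end of a family V exon nor the TRAJ segment:
TRAV13-1 with TRAJ11, replicate 2: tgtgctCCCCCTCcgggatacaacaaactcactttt
TRAV13-1 with TRAJ6, replicate 3: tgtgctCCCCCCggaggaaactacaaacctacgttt
TRAV13-2 with TRAJ37, replicate 2: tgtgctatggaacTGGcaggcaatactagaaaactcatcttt
TRAV13-2 with TRAJ15, replicate 2: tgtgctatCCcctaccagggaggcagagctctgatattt
TRAV13D-2 with TRAJ48, replicate 1: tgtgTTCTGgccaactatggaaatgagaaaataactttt
TRAV13N-4 with TRAJ40, replicate 1: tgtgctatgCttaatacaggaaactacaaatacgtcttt
TRAV13N-3 with TRAJ50, replicate 1: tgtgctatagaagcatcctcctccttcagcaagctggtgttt
TRAV13-4-DV7 with TRAJ48, replicate 1: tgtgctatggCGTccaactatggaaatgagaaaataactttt
The TRAJ11 rearrangement was in 20 cells, 0.563% of replicate 2 (interval 0.344% to 0.868%), and used TRAV13-1 form 2. In 18 of them it was with a TRBV1-TRBJ2-4 chain, and 9 also held a TRAV9D-3-TRAJ7 chain. The TRAJ6 rearrangement was in 12 cells, 1.70% of replicate 3 (0.883% to 2.95%), and used form 1. It was with a TRBV19-TRBJ1-4 chain in 11 cells and with a second TRA, TRAV7-1-TRAJ9, in 4. Both had CDR3s of 12 codons, both matched a family V exon only as far as tgtgct, and both went on with at least 5 C bases among 7 and 6 unmatched bases.

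TRAV13-2 with TRAJ37 was in 11 cells of replicate 2 and was with a TRBV19-TRBJ2-7 chain in 7, and TRAV13-2 with TRAJ15 was in 9 cells and with a TRBV5-TRBJ1-6 chain in 8. In replicate 1 the largest were smaller. TRAV13D-2 with TRAJ48 was in 5 cells with 3 different TRBs, the commonest in 3 of them, so these cells were not 1 clone by their TRBs. TRAV13N-4 with TRAJ40 was also in 5 cells, each with the same TRBJ1-3 chain, which was in 20 cells, 11 of them without a TRA. Its median contig had 1 UMI. TRAV13N-3 with TRAJ50 and TRAV13-1 with TRAJ40 followed with 4 cells each, and in replicate 2 TRAV13N-3 with TRAJ49 was also in 4 cells. After the TRAJ6 rearrangement, the largest of replicate 3 were of 2 cells, among them TRAV13-2 with TRAJ13 and TRAV13-1 with TRAJ27. No TRAV13-4-DV7 rearrangement was in more than 2 cells, and 4 were in 2 cells, with TRAJ48 and TRAJ58 in replicate 1 and with TRAJ44 and TRAJ53 in replicate 2. Both cells of the TRAJ48 one also held a TRAV12-3-TRAJ33 chain.

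Junctions of the family were much like those of other TRAV genes. The median CDR3 was 13 codons (range 10 to 17) against 14 (6 to 20). By name it was 14 for TRAV13-4-DV7 and TRAV13N-4 and 13 for the others. Bases that match no segment of GRCm38 numbered 4.50 on average in the family and 4.43 in the others, with a median of 3 in both. TRAJ31, TRAJ32, TRAJ34, TRAJ37 and TRAJ45 carried bases in these libraries that differ from GRCm38 in every rearrangement compared, for example 2 bases of TRAJ37 in 107 of 107. With those bases counted as matching, as in the sequences above, the means were 3.07 and 3.03. TRAV13-4-DV7 then had 2.68, TRAV13D-2 had 2.88 and TRAV13-1 had 3.15. TRAV13-4-DV7 and TRAV13D-2 shared a V region sequence in replicates 2 and 3, and their names differed in the start of the CDR3. Their matched V bases had medians of 12 and 7, so junction values under these 2 names may partly reflect the naming. These values are a description with no test.

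Some α chains recurred between libraries. Matched on gene names and on the translated CDR3, 9 of 281 family rearrangements (3.20%, interval 1.47% to 5.99%) were in more than 1 library, beside 77 of 2910 (2.65%) of the others. TRAV13-1 held 7 of the 9, among them 3 with TRAJ32 and 1 each with TRAJ18, TRAJ23, TRAJ31 and TRAJ49. The other two were TRAV13-2 with TRAJ37 and TRAV13-4-DV7 with TRAJ49. In 7 of the 9 the nucleotide sequences differed between the libraries, and 2, both TRAV13-1 and both in all 3 libraries, had 1 sequence in common between 2 of the libraries. The first of these, with TRAJ32, had 17 codons and was in 2, 4 and 1 cells. The second, with TRAJ23, had 13 codons and was in 2, 1 and 1 cells.

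The TRAJ23 chain was the only one of the 9 that was found with the same TRB (V gene and amino acid CDR3) in more than 1 library. A cell of replicate 1 and a cell of replicate 3 had it with a TRBV2-TRBJ1-2 chain. The 4 chains are shown because their nucleotides differ, with capitals at the differing bases:
TRA, replicate 1: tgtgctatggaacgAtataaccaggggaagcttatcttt
TRA, replicate 3: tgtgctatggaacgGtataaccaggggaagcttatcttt
TRB, replicate 1: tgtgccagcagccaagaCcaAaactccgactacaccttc
TRB, replicate 3: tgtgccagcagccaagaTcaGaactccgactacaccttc
The 2 cells came from different mice and had the same amino acid CDR3s by different nucleotides. The TRB had 12 UMIs in the cell of replicate 1 and 1 UMI in that of replicate 3, and the TRA had 6 and 4.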

How the data were processed

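Members, lists and tests were chosen with earlier results of these data known. The authors mapped reads of 10X Genomics V(D)J libraries with Cell Ranger on mm10 (version not given in the sources used here) and deposited contig annotations with counts of UMIs and reads per contig. The annotation of replicate 1 had 18 columns, without V region sequences, and those of replicates 2 and 3 had 31, so software versions may differ. The libraries held 34630, 41338 and 5142 UMIs on productive contigs of 2374, 3555 and 705 cells, and UMIs and cells limit the precision. Other deposited files were not used. V gene names were kept as deposited. Doublets were not called or removed, and cells with 2 TRA chains stayed in except in the alternative limited to 1 TRA and 1 TRB.

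Productive TRA and TRB contigs of called cells were reduced to rearrangements. Observed counts were compared by a two-sided exact test with libraries as strata. Expected counts came from all rearrangements of the same chain and library, or all its TRA-TRB pairs, with the tested gene included. V genes needed at least 10 rearrangements and pairs an expectation of at least 2, with Benjamini-Hochberg adjustment over all genes or pairs tested at 0.05. Intervals for shares are Clopper-Pearson (95%, exact), and the limit beside a count of 0 is 3 counts. The test was tested on simulated data. V regions were compared with GRCm38 copies by edit distance (edlib 1.3.9.post1). Junctions were matched to the V exon ends of the same TRAV subgroup and to TRAJ segments. The genes and rearrangements named are every family name, the 3 commonest TRAJ and TRBV of names with at least 10 rearrangements, pairs past the threshold, the 3 rearrangements of most cells per library, the largest of each name, those in more than 1 library, and the 3 TRAV genes of most similar TRAJ use. Others named were chosen after their values were seen.

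Alternatives were at least 3 UMIs per chain, merged copy names, cells with exactly 1 TRA and 1 TRB, amino acid CDR3s, leaving out each library, and other limits for expansion, expected pairs and the TRAJ boundary. Scripts ran in Python 3.11.15 with scipy 1.17.1, numpy 2.4.6, pandas 2.3.3 and matplotlib 3.10.9.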

Additional observations from a re-analysis of the deposited data

How the results depend on the processing

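No paired analysis was possible because the libraries are of 1 condition. Of 184 values recomputed under an alternative, 151 kept their direction and side of the threshold, or moved little. V genes called among expanded rearrangements numbered 0, and 1 (outside the family) with expansion over 2 cells, with V region sequences as genes, or without replicate 1 (0 to 1 over the libraries left out). TRAV-TRAJ pairs called fell from 10 to 2 with at least 3 UMIs, 5 in cells with exactly 1 TRA and 1 TRB, 1 with pairs expected at least 5 times and 0 to 7 without a replicate, where fewer pairs were tested. In cells with exactly 1 TRA and 1 TRB, 1 family pair was called. Genes called for V-proximal TRAJ numbered 7 to 19 without a replicate, against 20, and family genes 1 to 2, against 2, with 1 at 3 UMIs, 1 in cells with exactly 1 TRA and 1 TRB, 3 with merged copy names and 3 with the boundary at the median TRAJ number, where 24 genes were called in all. Merging dropped the letters D and N, so TRAV13D-2 was counted with TRAV13-2, which was not called (adjusted p = 0.288, exact test). The gene added by merging pooled TRAV13D-3 and TRAV13N-3, each too rare to test alone. The ratio of TRAV13-1 among expanded rearrangements turned from 0.962 to 1.11 in cells with exactly 1 TRA and 1 TRB and to 1.06 with amino acid CDR3s, and was 0.95 to 1.00 without a replicate. That of TRAV13D-2 was 0.28 to 1.23 without a replicate and 0 with expansion over 5 cells. The V-proximal ratio of TRAV13-2 turned from 1.02 to 0.984 at 3 UMIs and 0.936 in cells with exactly 1 TRA and 1 TRB, and was 0.94 to 1.14 without a replicate. None of these was called. The family's mean share of rearrangements, 8.92%, became 9.43% at 3 UMIs, 8.86% in cells with exactly 1 TRA and 1 TRB and 8.88% with amino acid CDR3s, and 8.91% to 8.94% without a replicate. The lead of TRAV13-2 over TRAV13-4-DV7 was 13.1 to 32.3 percentage points without a replicate. Unmatched CDR3 bases averaged 4.51 over libraries and 3.24 with TRAJ ends as these libraries carry them. The cause was not tested where none is named. TRAV13-4-DV7 had 22, 28 and 3 rearrangements by library, so replicate 3 adds little.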

Other observations

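Of the family's TRA contigs, 24.7%, 19.8% and 16.0% were in cells with a second TRA in replicates 1, 2 and 3, beside 17.3%, 16.7% and 7.42% of other TRA contigs. The family's value was the higher in 3 of 3 libraries, and this was not tested. These shares count contigs, so each cell of a clone counts. TRAV13-1 with TRAJ11 (20 cells) gave 10 of the 51 such family contigs of replicate 2. TRAV13-1 with TRAJ6 (12 cells) gave 4 of the 8 of replicate 3. The values of those libraries thus rest in part on these 2 rearrangements. Doublets were not removed, and their part in these shares was not tested. In 2 cells both TRA chains were of the family. Family cells without a TRB made up 4.14%, 7.42% and 8%, beside 6.24%, 6.83% and 14.4% of the cells with other TRA chains.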
